A study of Homo sapiens with 6 samples.

Results

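Caveolae are small flask-shaped pits of the plasma membrane, rich in cholesterol, and the 9 genes measured here encode parts of their coat, parts of their neck, and flotillins, which mark membrane rafts that are not caveolae. The genes were chosen by function, as 3 caveolins (CAV1, CAV2, CAV3), 3 cavins (CAVIN1, CAVIN2, CAVIN3), the neck proteins EHD2 and PACSIN2, and the flotillins FLOT1 and FLOT2, 10 genes in all. Of these, 9 had a row of their own among the 59192 features of the deposited table, and the identifier of PACSIN2 had none, so PACSIN2 was not analysed here. The family itself was selected on the measured fold changes of CAV1 and CAV2 between SW480-45 and SW480-NC, which were known from an earlier look at the same 6 libraries. The differences of the members between the cell lines are therefore given as a description, with their errors and without p-values.

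RNA of SW480 cells, a line from a human colorectal adenocarcinoma, was sequenced in 3 libraries of HPSE-knockdown cells, labelled SW480-45, and 3 libraries of control cells, labelled SW480-NC, each from an independent experiment. HPSE encodes heparanase, the endoglycosidase that cuts heparan sulfate chains. Per the study's methods, both lines were infected with a lentivirus carrying Cas9 and a puromycin resistance gene and then with a lentivirus carrying a guide RNA and EGFP, the guide being directed at HPSE in the knockdown line and a control guide in SW480-NC. The study calls the sequenced knockdown line SW480-KD1, and the label SW480-45 was taken to mean that line. Whether either line is a single clone is not given in the sources used here, and 1 knockdown line was sequenced, so an effect of HPSE and a difference between 2 selected lines cannot be told apart.

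Caveolins are hairpin proteins that assemble in the membrane with cholesterol, and CAV1 is needed for caveolae outside striated muscle. CAV2 forms complexes with CAV1 and depends on it to reach the cell surface, while CAV3 takes the place of CAV1 in muscle. Cavins coat the membrane from the cytosol. CAVIN1 is required for a caveola to form, and CAVIN2 and CAVIN3 join it. EHD2 is an ATPase that holds caveolae at the surface from a ring at their neck. Flotillins form assemblies of their own and serve here as raft proteins outside caveolae.

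Stretches before a start site of CAV1 and of CAV2, which were both lower in SW480-45, are shown for comparison. With them is that of CAVIN2, the tested member that was higher with no overlap. Each is the stretch of 250 bases before a RefSeq start site on GRCh38.p14, written 5′ to 3′ on the strand of the gene, with every GGGCGG or its reverse complement CCGCCC, the GC box, in capitals.
CAV1, chr7:116524759-116525008, plus strand: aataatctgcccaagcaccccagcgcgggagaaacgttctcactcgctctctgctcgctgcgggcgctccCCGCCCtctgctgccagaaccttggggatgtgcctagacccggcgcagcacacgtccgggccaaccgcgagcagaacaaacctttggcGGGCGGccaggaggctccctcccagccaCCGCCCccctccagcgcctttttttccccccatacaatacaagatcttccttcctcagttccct
CAV2, chr7:116499488-116499737, plus strand: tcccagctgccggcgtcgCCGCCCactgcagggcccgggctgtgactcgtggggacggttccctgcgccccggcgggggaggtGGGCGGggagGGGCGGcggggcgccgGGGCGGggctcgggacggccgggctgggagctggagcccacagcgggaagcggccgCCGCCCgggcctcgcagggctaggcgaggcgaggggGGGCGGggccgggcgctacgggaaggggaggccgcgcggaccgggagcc
CAVIN2, chr2:191847089-191847338, minus strand: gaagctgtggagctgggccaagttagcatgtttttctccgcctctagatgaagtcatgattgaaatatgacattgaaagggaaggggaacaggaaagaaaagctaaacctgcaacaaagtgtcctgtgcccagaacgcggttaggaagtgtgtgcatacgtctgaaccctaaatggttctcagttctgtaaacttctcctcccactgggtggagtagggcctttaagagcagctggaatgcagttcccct
RefSeq gave at least 1 window for 8 of the 10 genes, and none under the symbols CAVIN1 and CAVIN3. The start sites behind the CAV1 and CAV2 windows lie 25.3 kb apart on chromosome 7, on the same strand. The CAV1 window held 3 GC boxes and the CAV2 window 6, and the CAVIN2 window had 0. GC boxes did not follow the direction of change among the other tested members with a window. FLOT1 and FLOT2, which were not lower, had 8 and 2, with 76.8% and 66.0% G and C. EHD2, which was lower, had 1, with 69.6% G and C. Whether these letters bear on the levels was not tested. At least 1 GC box was present in 42.6% of all 35116 RefSeq windows of this length. G and C made up 63.6% of the CAV1 window, 83.2% of the CAV2 window and 48.0% of the CAVIN2 window, against a median of 58.0% over all windows. The count of CG pairs ran in the same order, at 18, 35 and 4, against a median of 11. On either strand, these CAV1 and CAV2 windows had no match to the AP-1 letters TGACTCA (in 4.20% of all windows), the TEAD letters GGAATG (in 11.9%), TATAAA (in 10.7%), CCAAT (in 32.0%) or the E-box CACGTG (in 6.34%). The CAVIN2 window held 1 GGAATG and none of the other letters. The other RefSeq windows of CAV1 and CAV2 held 2 or 3 GC boxes each, some of them sharing letters.

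The knockdown target HPSE was measured at 136, 172 and 146 normalized counts in SW480-45 against 269.9, 295 and 246 in SW480-NC, without overlap. A normalized count is the number of reads on a gene divided by the size factor of its library. Differences were taken with limma on log2(normalized count + 1), and a log2 fold change below 0 means a lower level in SW480-45. HPSE was at 56.1% of its SW480-NC mean, and its adjusted p of 0.0547 missed the threshold of 0.05 with limma. The study reports the knockdown by western blot of the protein, which RNA counts do not measure. The libraries held from 33221323 to 39802365 reads on the features. Epithelial markers were present, with 6 of the 8 listed genes in the table and a summed level of 111300 to 119800 normalized counts in SW480-45 and 128900 to 136600 in SW480-NC. Of these 6, 5 had a negative log2 fold change and 1 a positive one. The groups lay apart for 3 as lower and 1 as higher, against 12.0% and 11.4% of all features tested. KRT8 at −0.21 and EPCAM at −0.09, both named after their values were seen, were lower without overlap but not called with limma. KRT20, a keratin of differentiated intestinal epithelium, fell, from 7952 ± 619 to 4540.5 ± 82.3 normalized counts (SD, n = 3; log2 fold change −0.81). For KRT20, limma gave an adjusted p of 0.00719, with 0.0171 to 0.0452 when a library was left out and 6.34e-12 to 0.0859 in the other alternatives. VIL1, which encodes villin of the brush border, went the other way without overlap, at 9094 ± 360 normalized counts in SW480-45 and 7902 ± 539 in SW480-NC (SD, n = 3; log2 fold change 0.20), and missed the adjusted threshold with limma, at 0.225. It was named after its values were seen. CDX2, a transcription factor of the intestine, was low in every library, at 19.0 to 40.3 normalized counts. The 4 endothelial markers in the table summed to at most 54.6 normalized counts in any library, the 3 fibroblast markers to at most 386 and the 6 muscle and fat markers to at most 307. CDH5, COL1A2 and ADIPOQ, markers of endothelium, fibroblasts and fat, were at or near 0, but others of these lists were not. Over the libraries COL1A1 had 198 to 359 normalized counts, MYH11 101 to 191, ACTA2 68.9 to 115 and PDGFRB 10.5 to 49.9. Of the 13 genes of these lists 6 entered the fit, and none of the 6 passed the adjusted threshold with limma or edgeR. DESeq2 gave an adjusted p for COL1A1, ACTA2 and MYH11 only, and none of these 3 passed. An unadjusted p under 0.05 was found for 1 of the 6 with limma, against 16.2% of all features tested, and for 2 with each of the other tools. All 6 log2 fold changes were positive, at 0.67 for PECAM1 and 1.65 for VWF (endothelium), 0.48 for COL1A1 and 0.56 for PDGFRB (fibroblasts), and 0.20 for ACTA2 and 0.52 for MYH11 (muscle), with overlapping groups for each. Single libraries moved the values of VWF, PDGFRB, PECAM1 and ACTA2 by over 1.5 times. Leaving out SW480-NC replicate 2 gave 0.41 for VWF and leaving out replicate 3 of the same line gave 2.50. PDGFRB was at 0.08 without SW480-NC replicate 1, PECAM1 at 0.26 without SW480-45 replicate 1 and ACTA2 at 0.03 without SW480-45 replicate 2. With any library left out, COL1A1 stayed between 0.35 and 0.69 and MYH11 between 0.42 and 0.72. The part of these 6 genes in the results on caveolins was not tested.

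CAV1 (ENSG00000105974) and CAV2 (ENSG00000105971) were each lower in SW480-45, at 39.0% and 39.2% of their SW480-NC means. CAV1 had 1232, 1034 and 1120.2 normalized counts in SW480-45 and 2856, 2966 and 2849 in SW480-NC. The highest SW480-45 library of CAV1 stood below the lowest SW480-NC library. Its means were 1129 ± 99.0 and 2890.2 ± 65.6 normalized counts (SD, n = 3), a log2 fold change of −1.36 with a standard error of 0.09 and a 95% interval from −1.56 to −1.16. In GRCh38, CAV1 lies on the plus strand of chromosome 7, from 116524785 to 116561184 in the GENCODE 29 annotation.

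CAV2, its neighbour on the same strand, had 1927, 1766 and 2071 normalized counts in SW480-45 and 5135, 5156 and 4433 in SW480-NC. Again the groups lay apart. The means were 1922 ± 152 and 4908 ± 411 normalized counts (SD, n = 3), a log2 fold change of −1.35 with a standard error of 0.09 and a 95% interval from −1.57 to −1.13. The intervals of the 2 caveolins cover nearly the same range, as the plot of the fold changes shows. In bulk RNA, fewer cells with caveolin RNA and less caveolin RNA in each cell cannot be told apart.

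**Figure D1:**
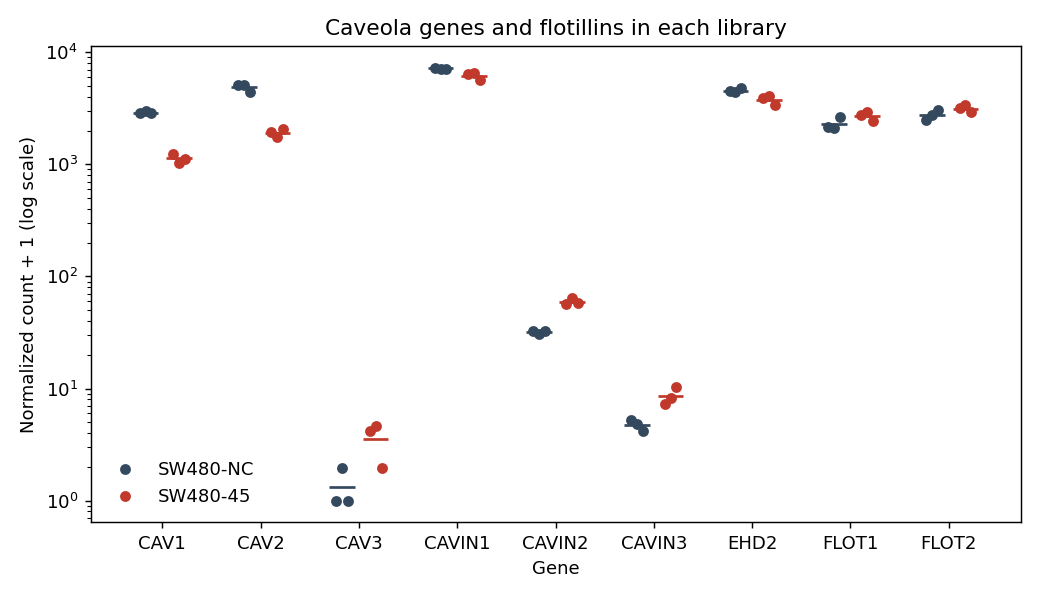
Normalized count plus 1 (log axis) of the 9 measured genes in each library, with SW480-NC in dark blue and SW480-45 in red; points are libraries and short lines the group means of 3. CAV1 and CAV2 stand apart with SW480-45 lower, as do CAVIN1 and EHD2 by a smaller margin. CAVIN2 stands apart with SW480-45 higher, as does CAVIN3 on few reads, and the points of CAV3, of FLOT1 and of FLOT2 overlap.

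CAV3 (ENSG00000182533), the muscle caveolin, was at or near 0 in every library. It had 3, 4 and 1 reads in SW480-45 and 0, 1 and 0 reads in SW480-NC. A count of 0 allows up to 3 reads, so no difference was detectable at this depth, and no fold change is given.

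CAVIN1 (ENSG00000177469), the cavin that caveolae require, was slightly lower in SW480-45, at 86.1% of its SW480-NC mean. It had 6444, 6469.9 and 5691 normalized counts in SW480-45 and 7303, 7139 and 7166 in SW480-NC. The groups did not overlap, and the lowest SW480-45 library was replicate 3. The log2 fold change was −0.22, with a standard error of 0.07 and a 95% interval from −0.38 to −0.05. With quantile normalization it was −0.14 and the interval, −0.31 to 0.02, included 0, as did that without an intensity trend, −0.45 to 0.01.

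CAVIN2 (ENSG00000168497) went the other way at a low level, with 55.9, 63.2 and 56.5 normalized counts in SW480-45 and 31.4, 29.9 and 31.8 in SW480-NC. All 3 SW480-45 libraries were above all 3 SW480-NC libraries. The means were 58.5 ± 4.06 and 31.04 ± 0.980 normalized counts (SD, n = 3), a log2 fold change of 0.89 with a standard error of 0.20 and a 95% interval from 0.43 to 1.35. These values rest on 183 reads in SW480-45 and 91 reads in SW480-NC, summed over 3 libraries each.

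CAVIN3 (ENSG00000170955) was barely detected, with 6, 8 and 10 reads in SW480-45 and 4, 4 and 3 in SW480-NC. The groups lay apart with SW480-45 higher, but CAVIN3 did not reach the mean of 10 normalized counts required for a test. Of its 1672 annotated exon bases, 557 are shared with AC068733.3 on the opposite strand. How the counting treated strand is not given in the sources used here, so reads from this stretch cannot be told apart. For CAVIN2 such a stretch covered 233 of 3229 bases, shared with AC098617.1, and for CAV2 76 of 6926 bases, shared with AC002066.1.

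EHD2 (ENSG00000024422), the neck ATPase, had 3877, 4045 and 3383 normalized counts in SW480-45 and 4501, 4400.1 and 4753 in SW480-NC. The groups did not overlap, but the gap between the nearest libraries was smaller than the range within SW480-45. EHD2 was at 82.8% of its SW480-NC mean, with a log2 fold change of −0.28, a standard error of 0.08 and a 95% interval from −0.47 to −0.08.

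The flotillins were not lower in SW480-45. FLOT1 (ENSG00000137312) had 2782, 2925 and 2434 normalized counts in SW480-45 and 2165, 2101 and 2619 in SW480-NC, so SW480-NC replicate 3 lay inside the SW480-45 range. FLOT2 (ENSG00000132589) had 3169.6, 3369.5 and 2909 normalized counts in SW480-45 and 2492, 2767 and 3046 in SW480-NC, again with SW480-NC replicate 3 inside the range of SW480-45. Both 95% intervals of the log2 fold change included 0. That of FLOT1 ran from −0.02 to 0.51 around 0.24, and that of FLOT2 from −0.04 to 0.42 around 0.19. With quantile normalization both excluded 0, at 0.04 to 0.54 and 0.02 to 0.45, as they did without SW480-NC replicate 3, at 0.10 to 0.58 and 0.03 to 0.49. FLOT1 also excluded 0 without SW480-45 replicate 3 and with no filter on low features. Without SW480-NC replicate 1 the log2 fold change of FLOT2 was 0.11.

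**Figure D2:**
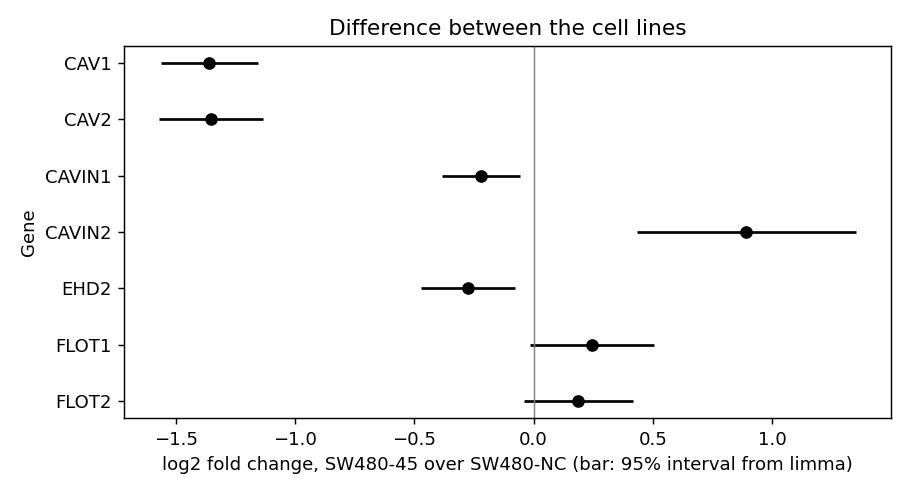
Fold change on the log2 scale (x axis, SW480-45 over SW480-NC) of the 7 members that entered the fit; points are limma estimates from 3 libraries a group and bars 95% intervals. CAV1 and CAV2 lie together at −1.36 and −1.35, CAVIN1 and EHD2 lie just below 0, and the bars of both flotillins cross 0.

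Of the 9 genes with a row, 7 averaged 10 normalized counts or more and entered the fit. As a description of genes chosen for their difference, and not as a test of them, the 2 members past the adjusted threshold of 0.05 with limma were CAV1 and CAV2, both lower, where 0.802% of the 21703 features tested were called in either direction, 0.470% as lower and 0.332% as higher. The groups did not overlap for 5 of the 7, 4 lower and 1 higher, against 23.4% of all features tested in either direction, 12.0% lower and 11.4% higher. Because CAV1 and CAV2 brought the family into view, nothing is read from these counts. The median log2 fold change of the 7 was −0.22, and that of all features tested was −0.0048. Among the 6810 features averaging 1000 normalized counts or more, CAV1 ranked 8 and CAV2 ranked 9 from the lowest log2 fold change, and among all 21703 features tested they ranked 216 and 218.

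The spread between libraries of a group was ordinary for the abundant members. On the log2 scale the within-group SD was 0.09 for CAV1, 0.12 for CAV2, 0.08 for CAVIN1, 0.10 for EHD2, 0.16 for FLOT1 and 0.13 for FLOT2. The median over the 6810 features of at least 1000 normalized counts was 0.10, with quartiles at 0.07 and 0.16. Leaving out any single library moved the log2 fold change of CAV1 between −1.42 and −1.30 and that of CAV2 between −1.42 and −1.29.

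To set the members beside each other, reads were divided by the annotated exon length of the gene in kilobases and by the library total, which is the usual RPKM scale. On this scale the level of CAVIN1 was the highest of the family, with 51.9 ± 1.10 in SW480-NC and 45.9 ± 2.90 in SW480-45 (SD, n = 3). EHD2 followed, at 32.0 ± 0.790 in SW480-NC and 27.2 ± 2.17 in SW480-45. In SW480-NC, the levels per length of FLOT2 at 22.9 ± 2.03, FLOT1 at 19.8 ± 2.13, CAV2 at 19.6 ± 1.92 and CAV1 at 19.5 ± 0.683 came next, the last 3 differing by less than their SDs and FLOT2 lying above FLOT1 by more than either SD. In SW480-45 the flotillins, at 26.7 ± 1.59 for FLOT2 and 24.1 ± 1.95 for FLOT1, lay below EHD2 by less than its SD for FLOT2 and by more for FLOT1, while CAV1 and CAV2 were at 7.84 ± 0.783 and 7.87 ± 0.739. CAVIN2 was far below these in either line, at 0.265 ± 0.00573 in SW480-NC and 0.513 ± 0.0273 in SW480-45. CAVIN3 and CAV3 were lower still, at most 0.161 per length in any library.

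The order of the middle members turned on the length used. With the longest annotated transcript in place of all exons together, CAV2 moved up to 41.1 ± 4.03 in SW480-NC, above EHD2 at 35.0 ± 0.864, and CAV1 was at 24.9 ± 0.872, the lowest of the 6 abundant members. In SW480-45, CAV2 at 16.5 ± 1.55 and CAV1 at 9.999 ± 0.999 were then the lowest of the 6. The same annotated length was used for a gene in both lines, so the fold difference of a ratio between the lines does not depend on it. The value of a ratio does. The near equality of CAV1 and CAV2 holds with all exons together and not with the longest transcript. The ratios that follow use all exons together. Whether the lines differ in the transcripts they use was not tested.

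The caveolins kept their proportion to each other but not to the cavin coat. The ratio of CAV1 to CAV2, on levels per length, was 1.08, 0.993 and 0.918 in SW480-45 and 0.944, 0.976 and 1.09 in SW480-NC, and the groups overlapped. The ratio of CAV1 to CAVIN1 was 0.179, 0.150 and 0.185 in SW480-45 and 0.367, 0.390 and 0.373 in SW480-NC. The groups were well apart for this ratio, with means of 0.171 ± 0.0187 and 0.376 ± 0.0119 (SD, n = 3). The ratio of CAV2 to CAVIN1 averaged 0.172 ± 0.0258 in SW480-45 and 0.377 ± 0.0305 in SW480-NC, and its groups did not overlap. In contrast, EHD2 to CAVIN1 averaged 0.592 ± 0.0157 and 0.617 ± 0.0265, with overlap. These ratios come from the same contrast as the fold changes and are not a separate line of support.

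CAV1 and CAV2 are neighbours, so the other genes around them on chromosome 7 were examined. Of 11 listed neighbours, 8 had a row and 6 entered the fit. Like all the lists used here, this one was chosen with earlier results of these data known. The p-values and counts of the lists are therefore a description and not independent support. Of the 6, 3 had an unadjusted p under 0.05 with limma, against 16.2% of all features tested. MET, the receptor of hepatocyte growth factor, whose start site is the next one downstream of CAV1 in the list, at a distance of 147 kb, had 24022, 23639 and 25047 normalized counts in SW480-45 and 30823, 31857 and 29598 in SW480-NC. The groups did not overlap. MET fell by 0.34 on the log2 scale with a standard error of 0.05, and limma gave an adjusted p of 0.0408. This call was lost with any 1 library left out, with adjusted p-values from 0.0547 without SW480-NC replicate 3 to 0.188 without SW480-45 replicate 1. In the other alternatives the adjusted p of MET was between 0.00865 and 0.201. The fold change of MET was smaller than that of CAV1, with 95% intervals on the log2 scale of −0.47 to −0.22 for MET and −1.56 to −1.16 for CAV1. CAV1 was chosen for its difference, so this comparison is a description and not a test.

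Upstream of CAV2, TES, a focal adhesion protein, had 3801 ± 101 normalized counts in SW480-45 and 3909 ± 132 in SW480-NC (SD, n = 3), and its log2 fold change of −0.04 had a 95% interval from −0.19 to 0.11. Its sign turned with quantile normalization, to 0.018. CAPZA2, an actin capping subunit beyond MET, was at −0.22 on the log2 scale with a 95% interval from −0.43 to −0.02, and its adjusted p with limma was 0.275. CFTR, the chloride channel, was at −0.10 (95% interval −0.24 to 0.03), and CTTNBP2, a cortactin binding protein, at 0.29 (−0.28 to 0.85). FOXP2, a transcription factor of low level here whose start site lies 2110 kb from that of CAV1, averaged 49.6 ± 7.07 normalized counts in SW480-45 and 16.7 ± 9.80 in SW480-NC (SD, n = 3). Its log2 fold change of 1.64 missed the adjusted threshold with limma, at 0.121, and passed with DESeq2, at 0.0265. MDFIC and TFEC did not reach the level required for a test, with at most 12 reads in any library and no reads in several. ST7, WNT2 and ASZ1 had no row of their own.

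A list of relatives and partners of the neck and cavin proteins (EHD, PACSIN and dynamin relatives, CAVIN4 and ROR1 among them) held no called gene. Of its 10 genes, 7 had a row and 5 entered the fit, and none of the 5 passed the adjusted threshold with limma, edgeR or DESeq2, although DESeq2 gave an adjusted p for 4 of them only, CAVIN4 being without one. An unadjusted p under 0.05 with limma was found for 3 of the 5, against 16.2% of all features tested. Their median log2 fold change was 0.31. CAVIN4, the muscle cavin, had 20.0, 17.2 and 22.6 normalized counts in SW480-45 and 6.28, 9.66 and 12.7 in SW480-NC (log2 fold change 1.03, limma adjusted p = 0.268). ROR1, a receptor that binds CAVIN1 and caveolin, averaged 824 ± 83.7 in SW480-45 and 639.98 ± 16.5 in SW480-NC (SD, n = 3; log2 fold change 0.36, limma adjusted p = 0.166).

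Among other raft proteins 1 gene was called. Of the 16 listed, 14 had a row and 11 entered the fit, with 8 negative and 3 positive log2 fold changes and a median of −0.21. An unadjusted p under 0.05 with limma was found for 5 of the 11, against 16.2% of all features tested. The groups lay apart with SW480-45 lower for 5 of the 11, against 12.0% of all features tested. The 1 call with limma was MALL, which edgeR and DESeq2 also called. MALL, a raft protein of the MAL family that is known to interact with caveolin, fell, with 2356, 2531 and 2501 normalized counts in SW480-45 and 4971, 3648 and 5102 in SW480-NC. The groups did not overlap, and SW480-NC replicate 2 was the lowest control. On the log2 scale MALL was at −0.88 with a standard error of 0.13, and limma gave an adjusted p of 0.0390. The adjusted p of MALL was 0.0178 without SW480-NC replicate 2 and rose above the threshold with any other library left out, to between 0.0740 without SW480-NC replicate 3 and 0.157 without SW480-45 replicate 1. In the other alternatives it was between 4.23e-07 and 0.141.

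Among 19 genes of signaling and adhesion proteins that bind caveolin, 18 entered the fit, and none passed the adjusted threshold with limma or edgeR. With DESeq2, PLAUR passed as lower and GRB7 as higher, both named after their values were seen, and 5 of the 18 had an unadjusted p under 0.05 with limma, against 16.2% of all features tested. Their log2 fold changes were 9 positive and 9 negative, with a median of 0.02. The 2 genes with the largest absolute values were ITGA5, an integrin subunit, at 0.90 (limma adjusted p = 0.163), and TGFBR1, a receptor of TGF-beta, at 0.44 (limma adjusted p = 0.449). For TGFBR1 the SW480-45 libraries were split, at 507, 1015 and 1031 normalized counts, around 552, 597 and 643 in SW480-NC.

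Of 17 transcription factors and cofactors reported to act on CAV1, 14 entered the fit, with a median log2 fold change of −0.04. Of the 14, 4 had an unadjusted p under 0.05 with limma, against 16.2% of all features tested. With limma and with edgeR 1 was called, EGR1, and DESeq2 also called WWTR1, the TEAD partner TAZ. WWTR1, named after its values were seen, had 1483 ± 28.5 normalized counts in SW480-45 and 1969 ± 224 in SW480-NC (SD, n = 3), without overlap, and its log2 fold change of −0.40 had an adjusted p of 0.124 with limma and 0.0305 with DESeq2. EGR1, an immediate early zinc finger factor, rose, with 3005, 2922 and 3256 normalized counts in SW480-45 and 1923, 1651 and 1849 in SW480-NC. All SW480-45 libraries were above all SW480-NC libraries. On the log2 scale EGR1 was at 0.76 with a standard error of 0.09, and limma gave an adjusted p of 0.0159. Without SW480-NC replicate 3 the adjusted p of EGR1 was 0.0463, and with any other library left out it lay above the threshold, from 0.0535 without SW480-45 replicate 2 to 0.0721 without SW480-45 replicate 1. In the other alternatives it was between 1.49e-08 and 0.104. Together the 5 lists around the family held 3 calls among 54 genes tested, where 0.802% of all features were called. The lists were chosen with earlier results of these data known, so this count is a description, and no excess is read from it.

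The genes whose levels over the 6 libraries were most like those of CAV1 were sought among 8869 other features with a symbol that averaged 100 normalized counts or more. By Pearson's r of log2(normalized count + 1), MMP7, a matrix metalloproteinase, came first at 0.998, followed by JAG1, a Notch ligand, at 0.996, SRFBP1 at 0.996, RTCA at 0.995 and MARS2, a mitochondrial tRNA synthetase, at 0.995. CAV2 ranked 13, with r = 0.991. In 178 of these features r was above 0.95. The 6 points are 3 libraries of each line, so r mostly follows the difference between the lines, and no p is given. Pearson's r does not depend on the size of a change. MMP7 had 5544, 4993 and 5280 normalized counts in SW480-45 and 12596, 12824 and 13448 in SW480-NC. MARS2 had 2302, 2191 and 2225 in SW480-45 and 2578, 2628 and 2608 in SW480-NC, a smaller fall than that of CAV1. JAG1, SRFBP1 and RTCA also fell by less than CAV1.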

How the data were processed

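RNA-seq was carried out on SW480-45 and SW480-NC cells (3 libraries each). The authors deposited gene counts divided by 1 size factor per library, a signal per feature. The submitters' processing notes name bcl2fastq, HISAT2, DESeq2 and GRCh38, and the study's methods name Cuffdiff. The counting tool and annotation are not given in the sources used here. Within 0.01 of a step, 100% of the values were whole multiples of 1 step per library, which gave the reads.

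Groups were compared with limma 3.58.1 (R 4.3.3), using an intensity trend on log2(normalized count + 1), over 21703 features averaging 10 normalized counts or more, with Benjamini-Hochberg adjustment over all of them. It called 174 features, and edgeR 4.0.16 on the recovered reads called 136. DESeq2 1.42.0, other pseudocounts, filters and normalizations, the replicate block and leaving out each library were alternatives. Lengths and coordinates came from GENCODE 29. Named genes were the members, HPSE, called genes of the lists, the 2 largest changes in a list without calls, chromosome 7 neighbours, and the 5 genes most like CAV1. The members and lists were chosen with earlier results of these data known. Scripts were tested on simulated data.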

Additional observations from a re-analysis of the deposited data

How the results depend on the processing

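The log2 fold changes of CAV1 and CAV2 moved by less than the spread between replicates in all 14 alternatives, and that of CAVIN2 went from 0.89 to 0.82 with a pseudocount of 5. CAV1 passed the adjusted threshold in all 14 and CAV2 in all but the one without an intensity trend. Because CAV1 and CAV2 were chosen for their difference in the same libraries, these calls are a description and not a test of them. Whether the 95% intervals of CAVIN1 and the flotillins included 0 changed with the settings given beside their values. Over all features, 174 calls became 11 without an intensity trend, 767 with DESeq2, 12 with the replicate block and 29 to 93 with a library left out (29 without SW480-NC replicate 1). The 3 calls in the lists around the family became 1 with quantile normalization, 0 without an intensity trend, 7 with DESeq2, 0 with the replicate block and 0 to 1 with a library left out. At an unadjusted p under 0.05, 20 of the 54 genes in these lists were under the threshold with limma, against 16.2% of all features tested. That count too is a description, since the lists were chosen with earlier results known. The sign of TES turned with quantile normalization, to 0.018. HPSE passed at an adjusted p of 0.0451 with all features, 0.0460 at a floor of 50 and 0.000924 with DESeq2, and missed it in the others, at 0.0506 to 0.169, and with any library left out, at 0.0777 to 0.199. The cause of these changes was not tested. Same-numbered libraries correlated in their deviations from the group means at 0.0025, −0.020 and 0.0074, so the numbers were not taken as pairs, and the block is reported here only. Low reads limit CAV3, CAVIN3 and CAVIN2.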

Other observations

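MYC, listed among the factors reported to act on CAV1 and named here after its values were seen, was split within both lines, at 1979, 8721 and 7177 normalized counts in SW480-45 and 11556, 2145 and 7767 in SW480-NC.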
